A study of Mus musculus with 4 samples.

Results

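Glycolysis splits glucose into pyruvate, and tumor cells often send that pyruvate on to lactate even where oxygen is present. Glucose enters through facilitative carriers, is trapped by hexokinase and committed by phosphofructokinase, and the later enzymes recover ATP before pyruvate kinase and lactate dehydrogenase close the route. Several of these steps exist as isozymes from separate genes, and many of the genes carry binding sites for the hypoxia-inducible factors. The RNA of 10 genes of this route was followed: the glucose carrier Slc2a1 and the enzymes Hk1, Hk2, Pfkl, Pfkp, Aldoa, Pgk1, Eno1, Pkm and Ldha. They were chosen by gene name from the deposited count table and held 11 of its 54532 rows, because 2 neighboring gene models are both named Aldoa. All 11 rows passed the filter on low counts.

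The cells came from C57BL/6 mammary tumors of the MMTV-PyMT model, in which a promoter active in mammary epithelium expresses polyoma middle T. Tumors grew after MFP injection of PyMT-Dll1+ cells. Unirradiated tumors (2 libraries, no radiation) were compared with tumors given targeted radiation, labelled day 30 (2 libraries), and every library was made from cells sorted for the mCherry reporter of Dll1, a Notch ligand. The sort used CD45, CD31 and TER119 antibodies before mCherry. The sources used here do not give age, dose or the interval from radiation to harvest, nor do they state that the libraries of a group are separate animals, so the error behind each p-value is that among 4 libraries and could be technical.

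Summed counts were between 16811888 and 20817997 per library. The irradiated libraries differed from each other far more than the unirradiated ones, with a biological coefficient of variation of 39.4% against 5.93% over the tested genes. Summed markers of other cell types were highest in irradiated 2. In irradiated 1 most sums were higher by far less, and the adipocyte sum lay between the unirradiated ones. The median log2 difference of the fibroblast and pericyte markers from the unirradiated mean was 0.034 in irradiated 1 and 2.31 in irradiated 2. The 10 markers of tumor epithelium summed to 11560 and 11097 CPM (counts scaled by TMM to a common library total) without radiation, against 11851 CPM for irradiated 1 and 9673 CPM for irradiated 2. The 12 fibroblast and pericyte markers summed to 885, 891, 1065 and 6385 CPM in the same order, the 10 endothelial markers to 36.8, 36.3, 62.8 and 858 CPM, and the 12 macrophage markers to 357, 324, 362 and 1033 CPM, most of it from Cd14 in the 3 lower libraries. Of the 12 macrophage markers 11 lay above in both irradiated libraries and 10 passed DESeq2, with 0 passing edgeR and a median log2 difference of 2.49 for irradiated 1 and 5.69 for irradiated 2. All 9 tested lymphocyte markers also lay above in both and passed DESeq2, with 0 passing edgeR. Of all tested genes 20.3% lay above in both, and DESeq2 called 2.96% of genes higher and edgeR 0%. The 12 lymphocyte markers summed to 8.18 and 6.31 CPM without radiation and 30.1 and 197 CPM with it. The 9 neutrophil markers summed to between 5.73 and 123 CPM, highest in irradiated 2. Red cell, adipocyte and skeletal muscle markers summed to at most 35.1, 83.9 and 21.9 CPM, each in irradiated 2. No marker on these lists was at 0 in all 4 libraries. In such bulk RNA, fewer cells of a type and less RNA per cell cannot be told apart, and the part of these other cells in the values below was not tested.

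Glycolytic RNA was abundant in the Dll1-positive cells under both conditions, and no member passed the test between them. The 11 rows summed to 5386 and 5182 CPM without radiation and to 5028 and 5010 CPM with it, both below. The group means were 5284 ± 145 and 5019 ± 12.8 CPM (SD, n = 2 each), and the exact permutation test gave p = 0.333, two-sided, the smallest that 2 against 2 libraries allow. By the edgeR quasi-likelihood test 0 of 11 rows were higher and 0 lower, where 0% of the 15993 tested genes were called in each direction. At an unadjusted p under 0.05 edgeR held 1 member higher and 0 lower, against 6.82% and 2.44% of all genes. By DESeq2 0 members passed either way, where it called 2.96% of genes higher and 0.380% lower. By limma-voom 0 members passed, where it called 0 genes in either direction. The smallest edgeR adjusted p of any tested gene was 0.489, so not passing edgeR or limma-voom sets no gene apart. For 2 rows the irradiated pair lay entirely above the unirradiated pair and for 5 entirely below, against 20.3% and 20.0% of all tested genes. With irradiated 2 left out the counts were 5 above and 5 below, where 41.1% and 42.7% of all tested genes lay so. With irradiated 1 left out they were 3 and 8, where 40.3% and 39.4% of all tested genes lay so. The median log2 fold change was -0.069 over the members and 0.0040 over all tested genes. Of all tested genes, 30.4% had a fitted log2 fold change beyond the largest of any member in size, that of Pgk1.

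The order of the levels per kilobase was nearly the same in all libraries. Aldoa led at 369.7 and 345 CPM per kilobase without radiation, ahead of Ldha at 325 and 304, Pkm at 199.7 and 195 and Eno1 at 140.4 and 128. Those 4 genes lay above 98.0% of all tested genes in each library. Pfkl, Pgk1 and Slc2a1 came next, with unirradiated means of 75.2 ± 1.47, 73.7 ± 3.57 and 72.4 ± 0.249 CPM per kilobase (SD, n = 2). Pgk1 overlapped both of the others, while Pfkl, at 74.1 and 76.2, lay just above Slc2a1, at 72.6 and 72.3. In the irradiated libraries Pgk1 was the highest of these 3, at 89.8 and 97.6 CPM per kilobase. Hk1 followed at 37.2 and 38.8 without radiation, then Hk2 at 13.9 and 15.1, Pfkp at 11.4 and 11.9, and the second Aldoa row at 7.95 and 7.97. The lengths behind these values are deposited ones that equal the union of all exons in GENCODE M21. With the longest principal transcript in their place, Hk1 moved ahead of Slc2a1 and Pfkp ahead of Hk2, while the 6 highest genes kept their order in the unirradiated mean.

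**Figure D1:**
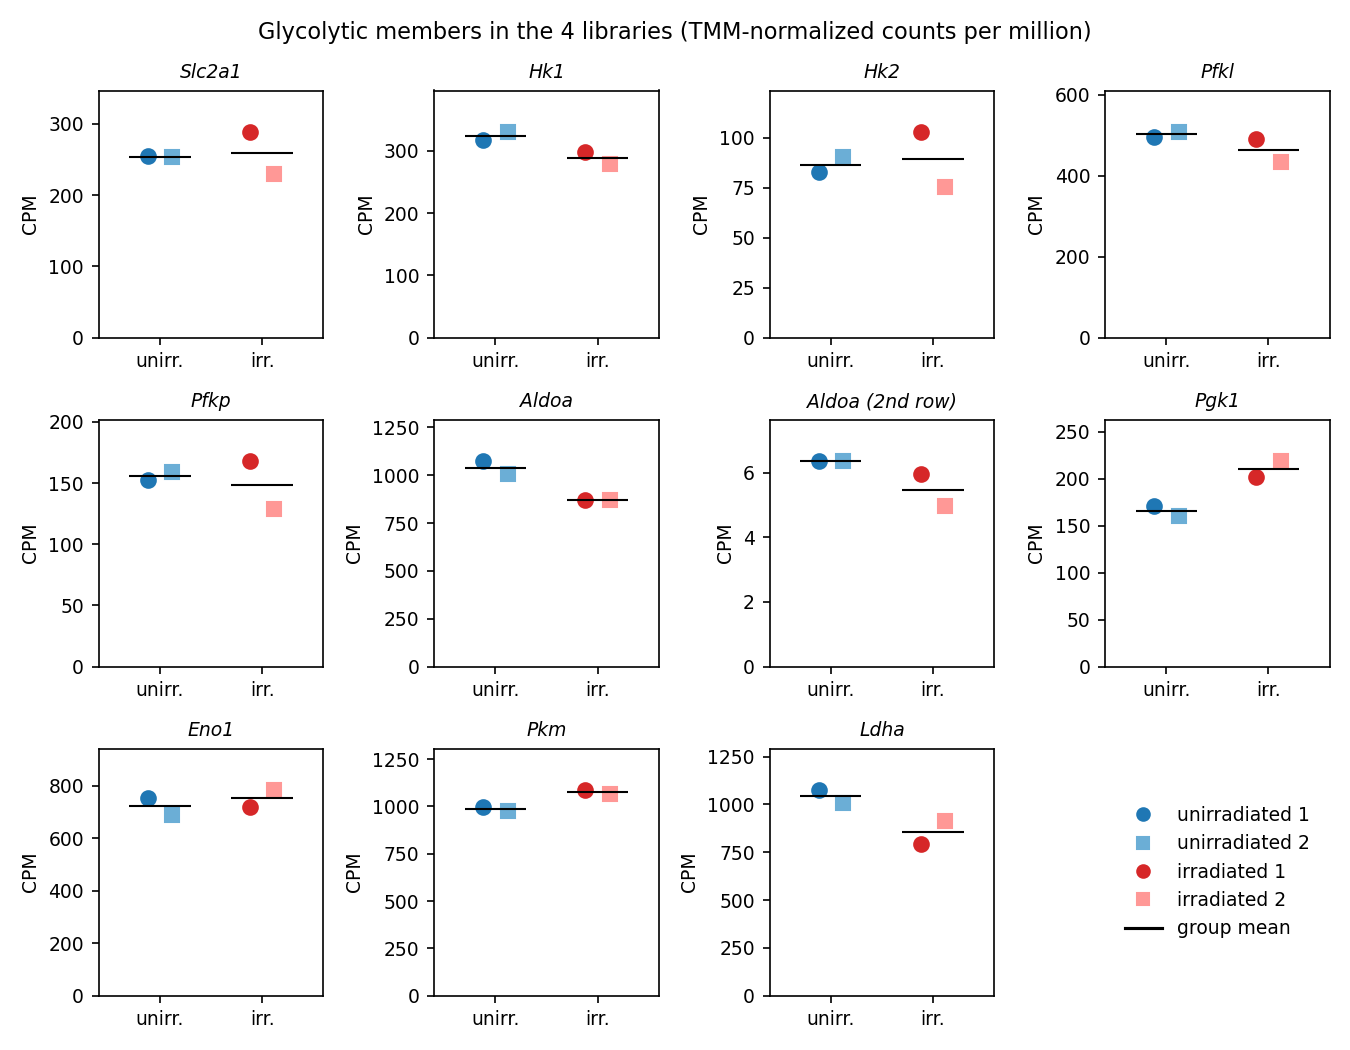
Level of each member in each library, in TMM-normalized CPM on axes that start at 0. Points are libraries and lines are group means. Pgk1 and Pkm lie higher in both irradiated libraries, Aldoa, Ldha, Hk1 and Pfkl lie lower, and Slc2a1, Hk2 and Pfkp have irradiated 1 above and irradiated 2 below the unirradiated pair.

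Promoter letters of 3 members are shown because Pgk1 and Ldha, the members at the upper and lower end of the fitted differences, both hold the core letters ACGTG of the hypoxia response element, as does Hk2. They were chosen after the values were seen. Windows of 250 bases before a RefSeq transcription start (GRCm38.p6) were found for all 10 members, 17 windows in all. ACGTG or GCGTG, searched on both strands, was in 14 of the 17 windows and in 38.6% of all 32851 windows. The members' windows also had a higher median GC content, 62.8% against 52.4%. ACGTG alone was in 7 of 17 member windows and 16.6% of all, and GCGTG in 8 of 17 and 28.2%. An overlapping pair of Aldoa windows holds the same ACGTG, and an overlapping pair of Eno1 windows the same GCGTG sites, so these are counted in both windows. At the outermost RefSeq start alone, 4 of 10 members held ACGTG, 4 held GCGTG and 7 held either. The E-box CACGTG, which reads the same on both strands and holds ACGTG on each, was in 1 of 17 and 6.02%. A match is a description of letters and not a bound site. Capitals mark ACGTG or, where the match is on the other strand, CACGT, and the 6 capitals CACGTG in Ldha are a match on both strands. Each line is written 5′ to 3′ on the strand of its gene, at chr6:82774455-82774704 on the minus strand for Hk2, chr7:46845554-46845803 on the plus strand for Ldha and chrX:106186850-106187099 on the plus strand for Pgk1.
Hk2: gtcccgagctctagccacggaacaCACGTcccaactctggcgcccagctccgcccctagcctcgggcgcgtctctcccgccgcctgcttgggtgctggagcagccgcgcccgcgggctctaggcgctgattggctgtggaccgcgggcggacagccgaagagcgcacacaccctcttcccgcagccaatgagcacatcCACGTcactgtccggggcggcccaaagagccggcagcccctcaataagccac
Ldha: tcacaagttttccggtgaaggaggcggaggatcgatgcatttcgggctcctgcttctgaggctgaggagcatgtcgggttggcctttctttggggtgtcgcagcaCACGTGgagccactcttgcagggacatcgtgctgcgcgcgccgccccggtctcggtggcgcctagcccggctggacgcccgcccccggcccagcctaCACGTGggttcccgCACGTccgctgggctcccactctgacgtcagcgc
Pgk1: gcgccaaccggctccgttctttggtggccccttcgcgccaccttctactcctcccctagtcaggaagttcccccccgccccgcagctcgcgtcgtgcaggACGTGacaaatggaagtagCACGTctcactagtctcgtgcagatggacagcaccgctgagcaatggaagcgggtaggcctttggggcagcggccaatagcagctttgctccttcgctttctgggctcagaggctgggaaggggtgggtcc
Ldha held 2 E-boxes and 1 further match, and Hk2 and Pgk1 held 2 ACGTG matches each. At the outermost RefSeq start of each gene, Slc2a1 held ACGTG and GCGTG, and Eno1, Pfkl and Pfkp held only GCGTG. Hk1, Aldoa and Pkm held neither there. Aldoa and Pkm did hold ACGTG, and Hk1 GCGTG, before a start further inside the gene. The outermost RefSeq start is not always that of the gene model. The Ldha window lies inside its model, and 193 bases of the outermost Aldoa window and 208 of the Pkm one lie in GENCODE exons.

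Slc2a1, the GLUT1 carrier that takes up glucose in most epithelia, lies on mm10 chromosome 4 from 119108711 to 119137983 (ENSMUSG00000028645). Without radiation it was at 255 and 253 CPM, and with it at 289 CPM (irradiated 1) and 230.1 CPM (irradiated 2). The irradiated libraries lay on opposite sides of a tight unirradiated pair, so the groups overlapped and the fitted difference was near 0 (log2 fold change 0.03, SE 0.15, edgeR adjusted p = 0.972). Without irradiated 1 its log2 fold change was -0.16, and without irradiated 2 it was 0.17. Slc2a1 made up between 86.2% and 90.4% of the RNA, per kilobase, of 9 Slc2a family carriers compared. With principal transcript lengths its share was between 82.4% and 87.7%. Slc5a1, a carrier outside that family, was left out of these shares. It was at 9.20 and 8.78 CPM per kilobase without radiation and at 6.91 and 6.07 with it.

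Among the other carriers, Slc2a3, the high-affinity GLUT3 carrier that leukocytes also express, was at 0.337, 0.295, 0.605 and 7.84 CPM, listing the unirradiated libraries first. It was high in irradiated 2 alone, the library with high leukocyte and stromal markers. The log2 fold change of Slc2a3 was 4.58 without irradiated 1 and 0.90 without irradiated 2. Hk3, a hexokinase of myeloid cells, had 0, 4, 3 and 74 counts and was too low for the test. Slc5a1, the sodium-coupled glucose carrier, was at 37.8 and 36.0 CPM without radiation and at 28.3 and 24.9 CPM with it. Both irradiated libraries were lower (log2 fold change -0.47, SE 0.13), and the difference did not pass (edgeR adjusted p = 0.491).

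The hexokinases trap glucose as glucose 6-phosphate. Hk1, the widely expressed mitochondrial form (ENSMUSG00000037012, chromosome 10 from 62268855 to 62379908), was at 317 and 331 CPM without radiation and 298 and 279 CPM with it. Its irradiated libraries were both lower, by less than 0.25 on the log2 scale each (log2 fold change -0.17, SE 0.12, edgeR adjusted p = 0.749). Hk2, the inducible form typical of muscle and many tumors (ENSMUSG00000000628, chromosome 6 from 82725025 to 82774454), was at 82.9 and 90.4 CPM without radiation. Irradiated 1 had 103 CPM and irradiated 2 had 75.6 CPM, above and below the unirradiated pair. The fitted log2 fold change was 0.04 (SE 0.17, edgeR adjusted p = 0.966), with -0.21 when irradiated 1 was left out and 0.24 when irradiated 2 was.

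The balance of the hexokinases does not depend on how libraries are scaled. The log2 ratio of Hk2 to Hk1 per kilobase was -1.42 and -1.36 without radiation, against -1.02 for irradiated 1 and -1.37 for irradiated 2. Irradiated 1 alone had relatively more Hk2, while irradiated 2 lay between the unirradiated values. The difference of the group means was 0.19 (exact permutation p = 0.667, two-sided), and without irradiated 1 it was 0.017. Hk1 was the more abundant hexokinase RNA in every library, with between 66.8% and 72.8% of the step.

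Phosphofructokinase makes the committed step and is built from liver, platelet and muscle type subunits. Pfkl, the liver type (ENSMUSG00000020277, chromosome 10 from 77986947 to 78010083), was at 495 and 509 CPM without radiation and at 491 and 434 CPM with it. Irradiated 1 lay just under the unirradiated pair and overlapped it when DESeq2 size factors were used, while irradiated 2 was lower (log2 fold change -0.12, SE 0.13, edgeR adjusted p = 0.860). Pfkp, the platelet type (ENSMUSG00000021196, chromosome 13 from 6579768 to 6648777), was at 152 and 159 CPM without radiation, against 168 CPM for irradiated 1 and 129 CPM for irradiated 2. As for Hk2 and Slc2a1, the irradiated libraries lay on either side (log2 fold change -0.069, SE 0.16, edgeR adjusted p = 0.937). Without irradiated 1 its log2 fold change was -0.29, and without irradiated 2 it was 0.10.

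Slc2a1, Hk2 and Pfkp thus lay above both unirradiated libraries in irradiated 1 and below both in irradiated 2. Of all tested genes 41.1% lay above both in irradiated 1, and 39.4% lay below both in irradiated 2. The share with both positions was not counted. The pattern was not particular to these members, as Car9 and Adm, given below, lay the same way. In irradiated 2 the median tumor epithelium marker was also lower, by a log2 difference of -0.29, against -0.054 in irradiated 1. Its part in the lower values was not tested. The muscle type Pfkm was at 59.7 and 57.1 CPM without radiation and 56.8 and 52.0 CPM with it. The log2 ratio of Pfkp to Pfkl was -2.70 and -2.68 without radiation and -2.55 and -2.76 with it, a mean difference of 0.038 (exact permutation p = 1, two-sided). Pfkl held between 71.3% and 72.4% of the subunit RNA per kilobase. The order of the minor subunits depended on the length used: Pfkp held 10.6% to 12.2% with the deposited length of 13401 bases and 18.7% to 21.2% with the principal transcript of 4145 bases, against 16.3% to 17.3% and 10.2% to 10.9% for Pfkm.

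Aldolase A, enolase, phosphoglycerate kinase and pyruvate kinase act below that step. Aldoa (ENSMUSG00000030695, chromosome 7 from 126795234 to 126800751), which cleaves fructose 1,6-bisphosphate, was at 1076 and 1004 CPM without radiation and at 871 and 873 CPM with it. The irradiated libraries were almost identical and both lower, by a log2 difference of -0.26 and -0.25, larger than the 0.10 between the unirradiated ones. The difference did not pass over all genes (log2 fold change -0.25, SE 0.14, edgeR adjusted p = 0.656). Without irradiated 1 its adjusted p by edgeR was 0.0356 and without irradiated 2 it was 0.0283, in fits where 1 irradiated library is given the spread of the unirradiated pair. Such fits called 15.9% of genes higher and 7.95% lower without irradiated 1, and 11.9% higher and 13.9% lower without irradiated 2.

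The second Aldoa row (ENSMUSG00000114515, chromosome 7 from 126800790 to 126809108) is a gene model just upstream on the same strand. It was at 6.35 and 6.37 CPM without radiation and 5.95 and 4.96 CPM with it, from between 93 and 132 counts per library (log2 fold change -0.22, SE 0.28, edgeR adjusted p = 0.873). It shared no exon base with the main Aldoa gene in GENCODE M21. The paralog Aldoc, an aldolase best known from brain, was abundant here, with between 29.8% and 33.5% of aldolase RNA per kilobase. It was at 609 and 564 CPM without radiation and at 454 and 415 CPM with it. Both irradiated libraries were lower (log2 fold change -0.43, SE 0.13), which passed DESeq2 (adjusted p = 0.0489) but not edgeR (adjusted p = 0.492) or limma-voom (adjusted p = 0.789). With an irradiated library left out its log2 fold change was -0.51 without irradiated 1 and -0.38 without irradiated 2.

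Pgk1, the kinase of the first ATP-yielding step (ENSMUSG00000062070, chromosome X from 106187100 to 106203699), was at 171 and 159.8 CPM without radiation and at 201 and 219 CPM with it. Both irradiated libraries were higher and the groups did not overlap. Pgk1 was the member with the largest fitted difference, 27.1% between the group means of 165 ± 8.02 and 210.2 ± 12.4 CPM (SD, n = 2 each). Its log2 fold change was 0.35 (SE 0.11), with an edgeR adjusted p of 0.502 and a DESeq2 adjusted p of 0.164. With either irradiated library left out it passed edgeR, at an adjusted p of 3.66e-04 without irradiated 1 and 0.0241 without irradiated 2, in the same kind of fit as for Aldoa.

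Eno1, enolase 1 (ENSMUSG00000063524, chromosome 4 from 150236721 to 150248879), was at 755 and 689 CPM without radiation and at 719 and 785 CPM with it. The groups overlapped (log2 fold change 0.058, SE 0.14, edgeR adjusted p = 0.942). Pkm, the muscle-type pyruvate kinase gene whose spliced forms PKM1 and PKM2 a gene count does not separate (ENSMUSG00000032294, chromosome 9 from 59656368 to 59679375), was at 999 and 973 CPM without radiation and at 1088 and 1065 CPM with it. Both irradiated libraries were higher, with group means of 986 ± 17.7 and 1076 ± 16.6 CPM (SD, n = 2 each) and log2 differences of 0.14 and 0.11 (log2 fold change 0.13, SE 0.14, edgeR adjusted p = 0.854). Another gene model on the same strand, AC160637.1, shares 15.3% of the Pkm exon bases and had between 766 and 1180 counts, so reads there cannot be assigned to 1 gene. Antisense genes shared at most 5.58% of the exon bases of any member, that of Pfkp with Pitrm1, and the library kit keeps no strand.

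Ldha, the lactate dehydrogenase subunit that favors lactate (ENSMUSG00000063229, chromosome 7 from 46841475 to 46855627), was at 1077 and 1006 CPM without radiation and at 793 and 915 CPM with it. Both irradiated libraries were lower, irradiated 1 the more so, with log2 differences of -0.39 and -0.19. The fitted log2 fold change of -0.29 (SE 0.15) was the lowest among the members and did not pass (edgeR adjusted p = 0.651). The log2 fold change of Ldha was -0.41 without irradiated 2 and -0.20 without irradiated 1. The heart-type subunit Ldhb was at 72.0 and 65.3 CPM without radiation and 62.8 and 56.8 CPM with it, lower in both irradiated libraries as well. Ldha held between 85.7% and 88.4% of the subunit RNA per kilobase.

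**Figure D2:**
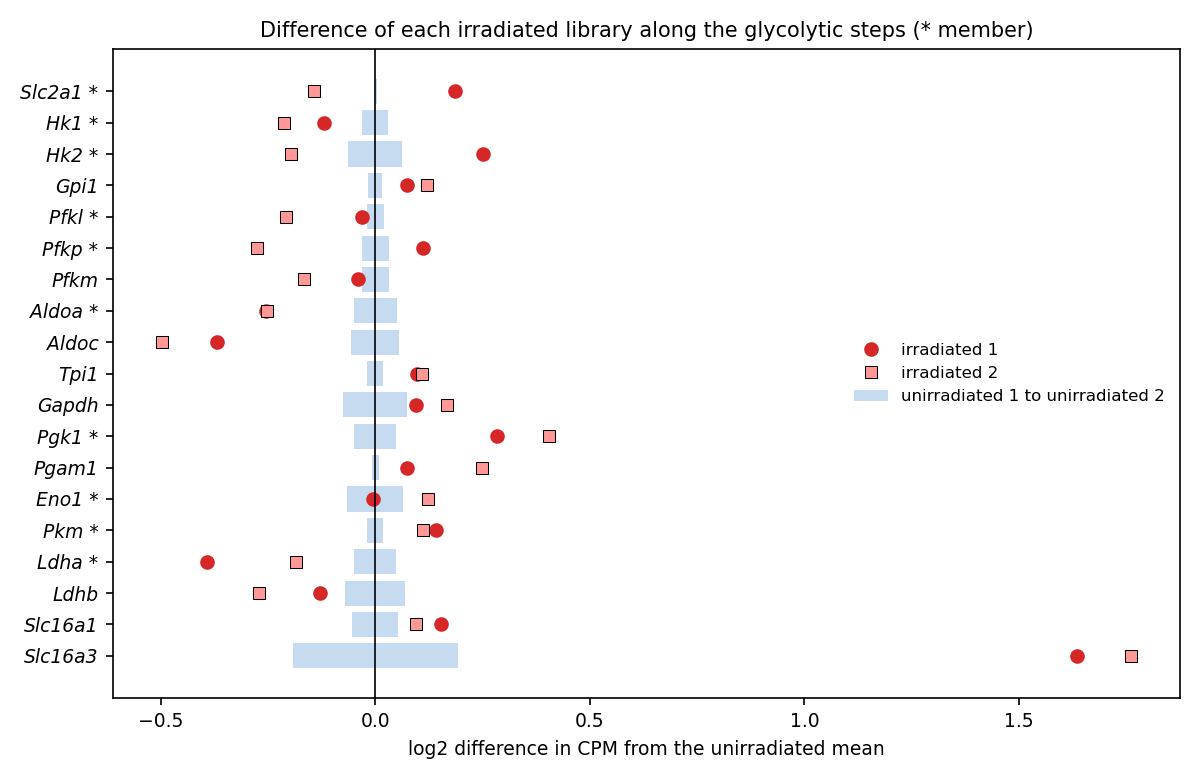
Log2 difference in CPM of irradiated 1 (circles) and irradiated 2 (squares) from the unirradiated mean for genes in the order of the steps, with the span between the unirradiated libraries as a bar. Hk1, Pfkl, Pfkm, Aldoa, Aldoc, Ldha and Ldhb lie left of the bar in both libraries. Gpi1, Tpi1, Gapdh, Pgk1, Pgam1, Pkm and Slc16a1 lie right of it in both, and Slc16a3 lies farthest out at 1.64 and 1.76.

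Slc16a3, the MCT4 carrier that exports lactate, had the smallest p among the other carriers. It was at 3.85 and 2.95 CPM without radiation and at 10.7 and 11.7 CPM with it, with no overlap and nearly equal irradiated values. The log2 fold change was 1.71 (SE 0.28). It passed DESeq2 (adjusted p = 0.00142) and did not pass edgeR (adjusted p = 0.489) or limma-voom (adjusted p = 0.789). With an irradiated library left out its log2 fold change was 1.75 without irradiated 1 and 1.63 without irradiated 2. Leukocytes and stromal cells can also express MCT4. From irradiated 1 to irradiated 2 the ratio was 1.09 for Slc16a3, 2.86 for the macrophage marker sum, 5.99 for the fibroblast sum, 6.54 for the lymphocyte sum and 13.7 for the endothelial sum. Most of the macrophage sum in irradiated 1 came from Cd14, at 276 CPM there and 325 CPM in irradiated 2. The median log2 difference of the 12 macrophage markers from the unirradiated mean was 2.49 in irradiated 1 and 5.69 in irradiated 2. The part of leukocytes and stromal cells in the Slc16a3 values was not tested. Slc16a1, the MCT1 carrier, was at 34.8 and 32.3 CPM without radiation and 37.3 and 35.8 CPM with it (log2 fold change 0.12, SE 0.12), and Bsg, the chaperone of both carriers, at 420.2 and 392 against 457 and 442 CPM.

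The steps that no member covers were read from their own enzymes. Gpi1, the isomerase after hexokinase, was at 288 and 282 CPM without radiation and 300.2 and 310.4 CPM with it, and Tpi1, triose phosphate isomerase, at 318 and 310.04 against 336 and 339 CPM. Gapdh, which feeds Pgk1, was at 988 and 890.5 CPM against 1002 and 1054 CPM. Pgam1, the mutase after Pgk1, was at 71.3 and 72.1 against 75.5 and 85.2 CPM. All 4 lay above in both irradiated libraries by small amounts, with log2 fold changes between 0.10 and 0.16, and none passed (edgeR adjusted p from 0.737 to 0.862). Of the 16 other enzymes of the steps, 11 were tested. Among these 5 lay above and 3 below, against 20.3% and 20.0% of all tested genes. By edgeR 0 passed, and the median log2 fold change was 0.098.

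**Figure D3:**
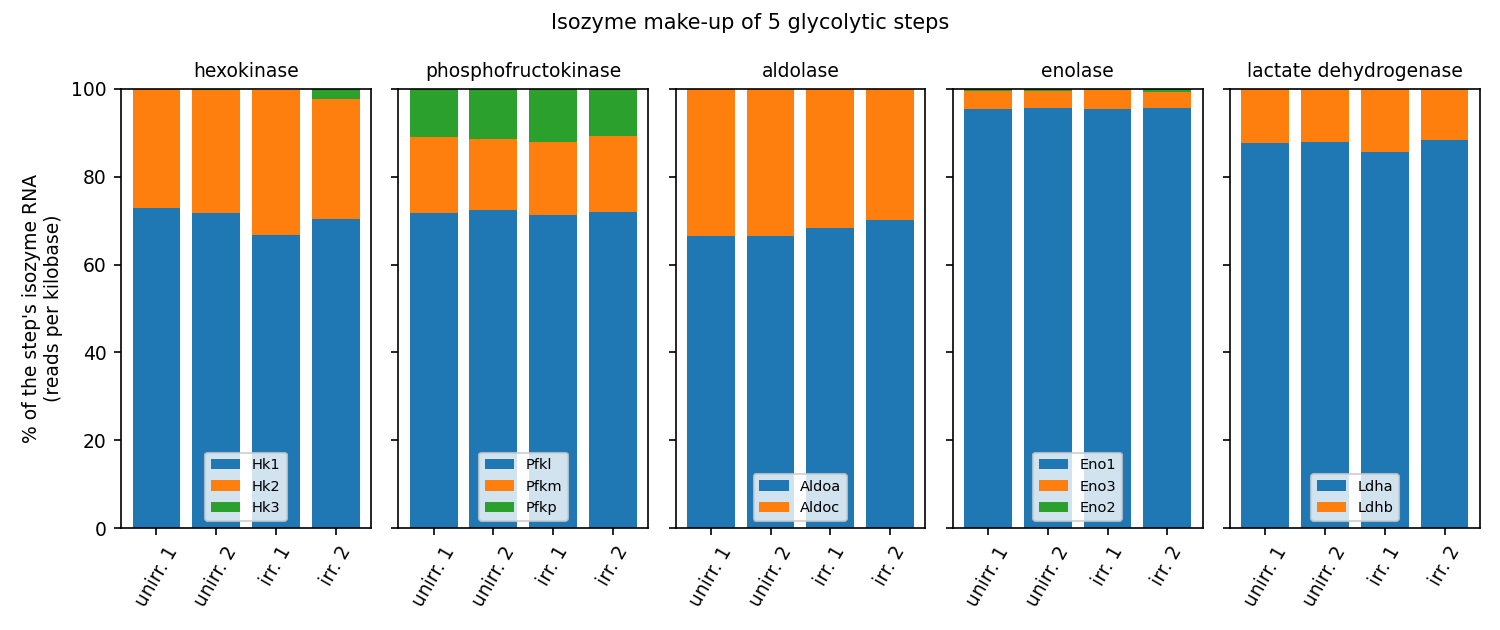
Share of each isozyme in the RNA of its step, from CPM per kilobase of deposited length, in the 4 libraries. Hk1, Pfkl, Aldoa, Eno1 and Ldha lead in every library, Aldoc holds 29.8% to 33.5% of aldolase, and Hk3 is visible in irradiated 2 alone.

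The isozyme make-up was much alike in the 4 libraries. Eno1 held between 95.3% and 95.7% of enolase RNA per kilobase, with the muscle form Eno3 at 3.66% to 4.39% and the neuronal form Eno2 at most 0.639%. Pkm held at least 99.99% of pyruvate kinase RNA, and the liver and red cell gene Pklr had at most 1 count in any library. With principal transcript lengths the leading isozyme of each step was the same, at 80.4% to 84.6% for Hk1 and 76.5% to 79.5% for Aldoa. Retrocopies and pseudogenes named for the members can resemble their parents in sequence, which was not measured here. There were 15 such rows, 5 with any count, and none held more than 24 counts in a library. How reads shared by parent and copy were counted is not stated.

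The members' spread between libraries was set beside that of all genes. The median absolute log2 difference between irradiated 1 and irradiated 2 was 0.18 over the members and 0.33 over the 15831 tested genes with counts in every library. Between the unirradiated libraries it was 0.062 and 0.14. Most members have high counts. The largest member difference between the irradiated libraries was 0.45, for Hk2.

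The listed regulators of glycolytic flux lay more often above than below. The list holds inhibitors such as Txnip beside activators, so its counts give no direction of flux. Of 17 regulators 8 had the irradiated pair above, 2 below and 7 overlapping, and 0 passed edgeR. Of all tested genes 20.3% lay above and 20.0% below, and the difference from these shares was not tested. Their median log2 fold change was 0.30, with 0.17 in irradiated 1 and 0.13 in irradiated 2. Hif1a, the hypoxia-inducible factor subunit, was at 71.8 and 70.1 CPM without radiation and 80.3 and 96.3 CPM with it (log2 fold change 0.32, SE 0.13, edgeR adjusted p = 0.543). Myc, a transcription factor that acts on many glycolytic genes, was at 169.96 and 162 against 186 and 175 CPM. Pfkfb3, which makes the activator of phosphofructokinase, was at 113 and 128 CPM without radiation and was highest in irradiated 1, at 149 against 114 CPM in irradiated 2, as were Hk2, Pfkp and Slc2a1. Txnip, an inhibitor of glucose uptake, was at 1332 and 1251 against 1326 and 1223 CPM, with overlapping groups.

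The kinases that close the entry of pyruvate into mitochondria differed among themselves. Pdk1, a hypoxia target, was at 69.7 and 71.7 CPM without radiation and 64.9 and 65.1 CPM with it, and Pdk2 at 55.3 and 51.5 against 41.2 and 43.6 CPM (log2 fold change -0.33, SE 0.11, edgeR adjusted p = 0.498). Pdk4, a kinase of fasting and fat use, was at 1.73 and 0.590 CPM against 3.08 and 4.42 CPM, from few counts (log2 fold change 1.67, SE 0.61, edgeR adjusted p = 0.515). Of the 9 genes of pyruvate entry itself 1 lay above and 3 below, against 20.3% and 20.0% of all tested genes. By edgeR 0 passed, and the median was -0.087. Mpc2, a subunit of the mitochondrial pyruvate carrier, was at 49.9 and 45.9 CPM without radiation and 32.7 CPM in irradiated 1 but 45.3 CPM in irradiated 2, and Dld, the shared dehydrogenase subunit, was at 92.3 and 88.9 against 70.3 and 81.6 CPM.

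Of 21 genes on branches from glycolysis, 3 lay above and 4 below, against 20.3% and 20.0% of all tested genes. By edgeR 0 passed, and the median was -0.016. Gfpt1, the entry enzyme of the hexosamine branch, was at 119 and 125 CPM without radiation and 87.1 and 89.8 CPM with it, lower in both (log2 fold change -0.46, SE 0.10). It passed DESeq2 (adjusted p = 0.0356) and not edgeR (adjusted p = 0.489) or limma-voom. Gpd1, which draws off a triose for lipid synthesis, was at 44.1 and 48.8 CPM against 28.9 and 36.7 CPM (log2 fold change -0.50, SE 0.16, edgeR adjusted p = 0.496).

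Of 15 hypoxia genes outside glycolysis 7 lay above, 8 overlapped and 0 lay below, where 20.3% of all tested genes lay above and 20.0% below. In this list 6 had an unadjusted p under 0.05 by edgeR on the higher side, against 6.82% of all tested genes. DESeq2 called 2 higher, against 2.96% of all genes, and 0 passed edgeR, against 0% of all genes. The median log2 fold change was 0.37, beside -0.069 for the members. The differences from these shares and between the lists were not tested. The list's median was 0.33 in irradiated 1 and 0.039 in irradiated 2. The genes passing DESeq2 were P4ha1 and P4ha2, prolyl hydroxylases of collagen. P4ha1 was at 26.5 and 25.5 CPM without radiation and 39.1 and 44.1 CPM with it (DESeq2 adjusted p = 0.0243, edgeR adjusted p = 0.489), and P4ha2 at 15.6 and 16.8 against 32.7 and 27.6 CPM (DESeq2 adjusted p = 0.0129, edgeR adjusted p = 0.489). Fibroblasts express both, and the part of fibroblast RNA in these values was not tested. The other genes of the list that lay above in both irradiated libraries were Bnip3, with log2 differences of 0.88 and 1.01, Ndrg1 (0.54 and 0.24), Egln1 (0.23 and 0.61), Higd1a (0.29 and 0.44) and Ankrd37 (0.83 and 0.37). Among the 8 that overlapped, Car9, a carbonic anhydrase, was at 49.4 and 49.5 CPM without radiation and 55.7 and 33.4 CPM with it, and Adm, adrenomedullin, at 73.9 and 75.0 against 85.2 and 64.2 CPM. Car9 and Adm were picked out after their values were seen.

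**Figure D4:**
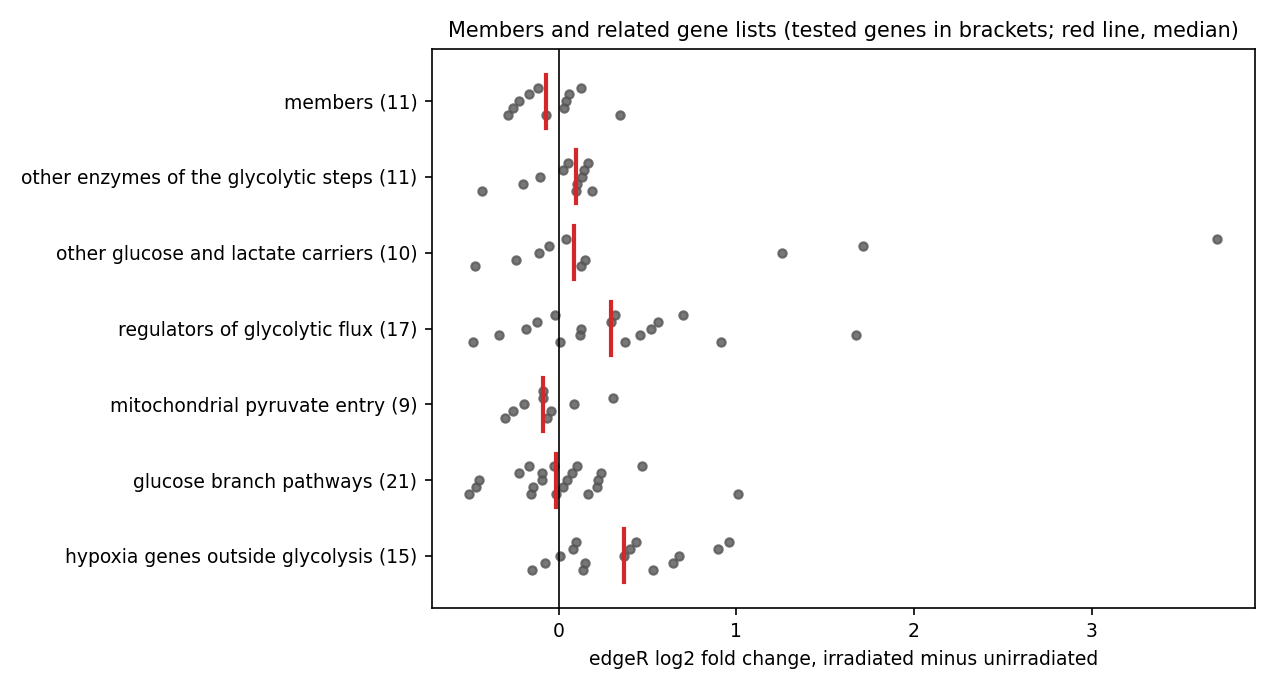
Fitted log2 fold change (irradiated minus unirradiated) of each tested gene in the members and 6 related lists, with the list median as a red line. The members lie between -0.29 and 0.35, and the carriers reach 3.71 for Slc2a3.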

How the data were processed

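Poly(A) RNA of 4 libraries was sequenced after a kit that keeps no strand, per the labels' protocols. Values are whole-number gene counts as the authors deposited them, beside gene lengths in bases. STAR 2.5, HTSeq 0.6.1, DESeq2 and mm10 are named in the submitters' processing notes, which state no counting options. Groups and replicate numbers came from the titles. The single tables of 3 libraries matched the table of all 4 at all 54532 genes.

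Counts were fitted in edgeR 4.0.16 (R 4.3.3): genes kept by filterByExpr (minimum count 10, minimum total 15; 15993 genes), TMM scaling, two-sided quasi-likelihood test, Benjamini-Hochberg adjustment over all tested genes, threshold 0.05. SEs are the log2 fold change divided by the square root of F. CPM use TMM-scaled library sizes, log2 differences a prior count of 2, and SDs are over 2 libraries. A row lies above or below when both irradiated libraries are on that side of both unirradiated ones. DESeq2 1.42.0 and limma-voom (limma 3.58.1) were alternatives, beside other scalings and filters, a replicate block and leaving out each library. The edgeR step was run on simulated data in which all 4 libraries had the same spread for a gene. The real groups differed in spread (5.93% unirradiated, 39.4% irradiated), so that run does not cover this case. All members are named, with 15 fixed genes and the 2 genes of smallest p in each related list; Bsg, Hk3, Eno3, Pklr, Bnip3, Ndrg1, Egln1, Higd1a, Ankrd37, Car9, Adm and the low-count copies were added after their values were seen. Members and lists were chosen with earlier results of these data known.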

Additional observations from a re-analysis of the deposited data

How the results depend on the processing

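The count of called genes depended on the fit. The members are 11 rows, too few for their count of calls to be compared with it. Against 0 genes higher and 0 lower in the edgeR fit, leaving out the filter on low counts gave 1338 higher and 105 lower, DESeq2 gave 437 and 56, and the replicate number as a block gave 2 and 0; the cause was not tested. Those settings, both other scalings, the stricter filter and limma-voom called 0 members. Of all genes, DESeq2 called 2.96% higher and 0.380% lower. With 1 library left out the fits gave between 0 and 2713 genes higher, between 0 and 2355 lower, 0 to 1 members higher and 0 to 2 members lower; the calls arose only when an irradiated library was left out, where the lone one is assumed to vary like the unirradiated pair. Members lying above numbered 2 to 5 and members lying below 5 to 8 with 1 library left out, the highest without irradiated 2 and without irradiated 1 respectively, where 41.1% of all tested genes lay above and 39.4% below. The Hk2 to Hk1 difference was between 0.017 and 0.37 and that of Pfkp to Pfkl between -0.068 and 0.14 with 1 library left out, the last reversed at -0.068 without irradiated 1. These leave-one-out checks of positions and ratios were chosen after seeing the data. Among 121 alternative fits of single member rows 6 crossed the threshold, all for Pgk1, Aldoa, Ldha or Pfkp without an irradiated library, and 6 changed sign, for Slc2a1, Eno1, Hk2 and Pfkp, each with a library left out. Scaling moved the median of all genes by under 0.1 on the log2 scale. The labels do not say whether same-numbered libraries are pairs. Their deviations correlated at -0.099 across genes, which cannot decide this, as the irradiated libraries differed far more than the unirradiated ones. Among 274 alternative fits of the 25 other named genes 35 crossed the threshold and 7 changed sign.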
